A study of Mus musculus with 6 samples.

Results

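The genes described here are 57 that carry a cell through mitosis, from the transcription factors that switch on the mitotic programme to the kinases, kinetochore proteins, motors and condensins that divide the chromosomes. They were chosen by name, from their known roles, and each was matched to the array through the RefSeq name of its probes. All 57 were on the array, among 45616 genes and other features tested. They were measured on 6 single-colour microarrays of islet cells from pups at postnatal day 1 (P1), all described in the methods as *Wnt4eGFPCre; mTmG*. In these mice an allele of *Wnt4* expresses eGFP and Cre, and the *mTmG* reporter turns permanently from membrane tdTomato to membrane GFP (mGFP) in any cell that has made Cre and in its descendants. Islets of 3 or 4 pups were pooled into each sample, and cells were sorted by FACS into mGFP+ cells, called Wnt4hi (3 arrays, labelled replicates 2, 3 and 4), and mGFP- cells, called Wnt4low (3 arrays, labelled replicates 1, 3 and 4). The paper's methods give this genotype for the pups, but one of its supplementary captions labels the sets of higher genes as *Wnt4eGFPCre* Tg+ and Tg-. Whether both fractions carry the *Wnt4eGFPCre* allele is therefore not settled. No sample labelled untreated or wild-type was analysed here. The methods define the fractions by mGFP and name no marker of a cell type for this sort, so that either fraction could hold islet cells of any type. The gating that the paper shows is for its cell cycle and mitochondria assays, and it took red (mRFP+) islet cells before the split by mGFP. The question behind the comparison is whether cells that differ in *Wnt4* activity also differ in proliferation.

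Mitosis genes are transcribed in a wave late in the cell cycle, and most of their mRNA is lost once a cell leaves the cycle, so their level in a population follows the share of cells in G2 and mitosis. FOXM1 and MYBL2 (B-MYB) drive this wave together with the MuvB complex, which reads a short promoter motif called CHR, and with NF-Y, which reads the CCAAT box. Islet β-cells divide mainly around birth and rarely in adult life, and these genes fall as the islet matures. In sorted cells measured in bulk, fewer cycling cells and less mitotic RNA per cell cannot be told apart.

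The arrays were alike in quality. Between 70.5% and 79.5% of spots were well above background on the Wnt4hi arrays and between 73.1% and 76.9% on the Wnt4low arrays, and 49 to 56 of the 57 members were well above background on any single array. On all 3 arrays of both fractions, 47 members cleared background in this way. *Kif18a* did not clear background on a single array, so its difference below does not stand for a measured level. Levels are normalized log2 intensities of 1 probe per gene, and a difference is always Wnt4hi minus Wnt4low on that scale, where -1 is a 2-fold lower level in Wnt4hi. Levels of different genes were not compared, because probes differ in brightness. All 6 arrays lie on 1 slide, and the labels do not say whether equal numbers mark the same pups, so p-values measure the spread between these pools. In a table of normalized values that the authors also deposited, the column of Wnt4hi replicate 2 correlated at 0.27 with the array used here (across probes, deviations from the mean over arrays), slightly less than with the array of Wnt4hi replicate 3 (0.29), and the other columns at 0.84 to 0.87 with theirs. Which sample the values under Wnt4hi replicate 2 belong to is therefore in doubt in one of the 2 sources. The values below come from the scanner output of each array, and the count without Wnt4hi replicate 2 is given.

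Most mitosis genes read lower in Wnt4hi cells, by amounts that for most single genes did not exceed the spread between arrays. Of the 57 members, 50 had a lower mean in Wnt4hi and 7 a higher one, where 36.4% of all features were lower. Their median difference was -0.39 and their mean -0.54, beside a median of 0.07 over all features. In the limma fit over all features, 14 members were lower in Wnt4hi at an unadjusted p under 0.05, which is 24.6% of the members and compares with 5.53% of all features called lower by the same rule. Of the 22908 features with a gene symbol, 1786 were called lower. No member was higher by that rule, which called 5.06% of all features. None of the 57 passed after Benjamini-Hochberg adjustment over all features, where 0.406% of features were called lower, and the lowest adjusted p of a member was 0.222 (*Ckap2*). The 14 were *Foxm1*, *Mki67*, *Top2a*, *Incenp*, *Birc5*, *Cdca8*, *Mad2l1*, *Bub1b*, *Tpx2*, *Ckap2*, *Kif11*, *Kif20a*, *Espl1* and *Ube2c*. For 10 members, *Ncapg* and 9 of the 14, every Wnt4hi array lay below every Wnt4low array, which is 17.5% of the members beside 6.44% of all features. This held for 1957 of the 22908 features with a gene symbol. The count of 14 depended on single arrays. It was 5 without Wnt4low replicate 4, 7 without Wnt4low replicate 1, 8 without Wnt4hi replicate 2 and 20 without Wnt4low replicate 3, while the share of all features called lower stayed between 4.61% and 5.73% as each array was left out. Without Wnt4hi replicate 4, 1 member, *Ttk* (0.97), was higher at an unadjusted p under 0.05, where 9.82% of all features passed in either direction. *Foxm1*, *Incenp*, *Cdca8*, *Espl1* and *Ckap2* passed with each of the 6 arrays left out in turn, and *Birc5* with 5 of them. The other 8 passed with only 1 or 2 of the 6 left out. With 3 arrays against 3, an exact permutation test of a single gene cannot give a two-sided p below 0.1, so none was used.

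**Figure D1:**
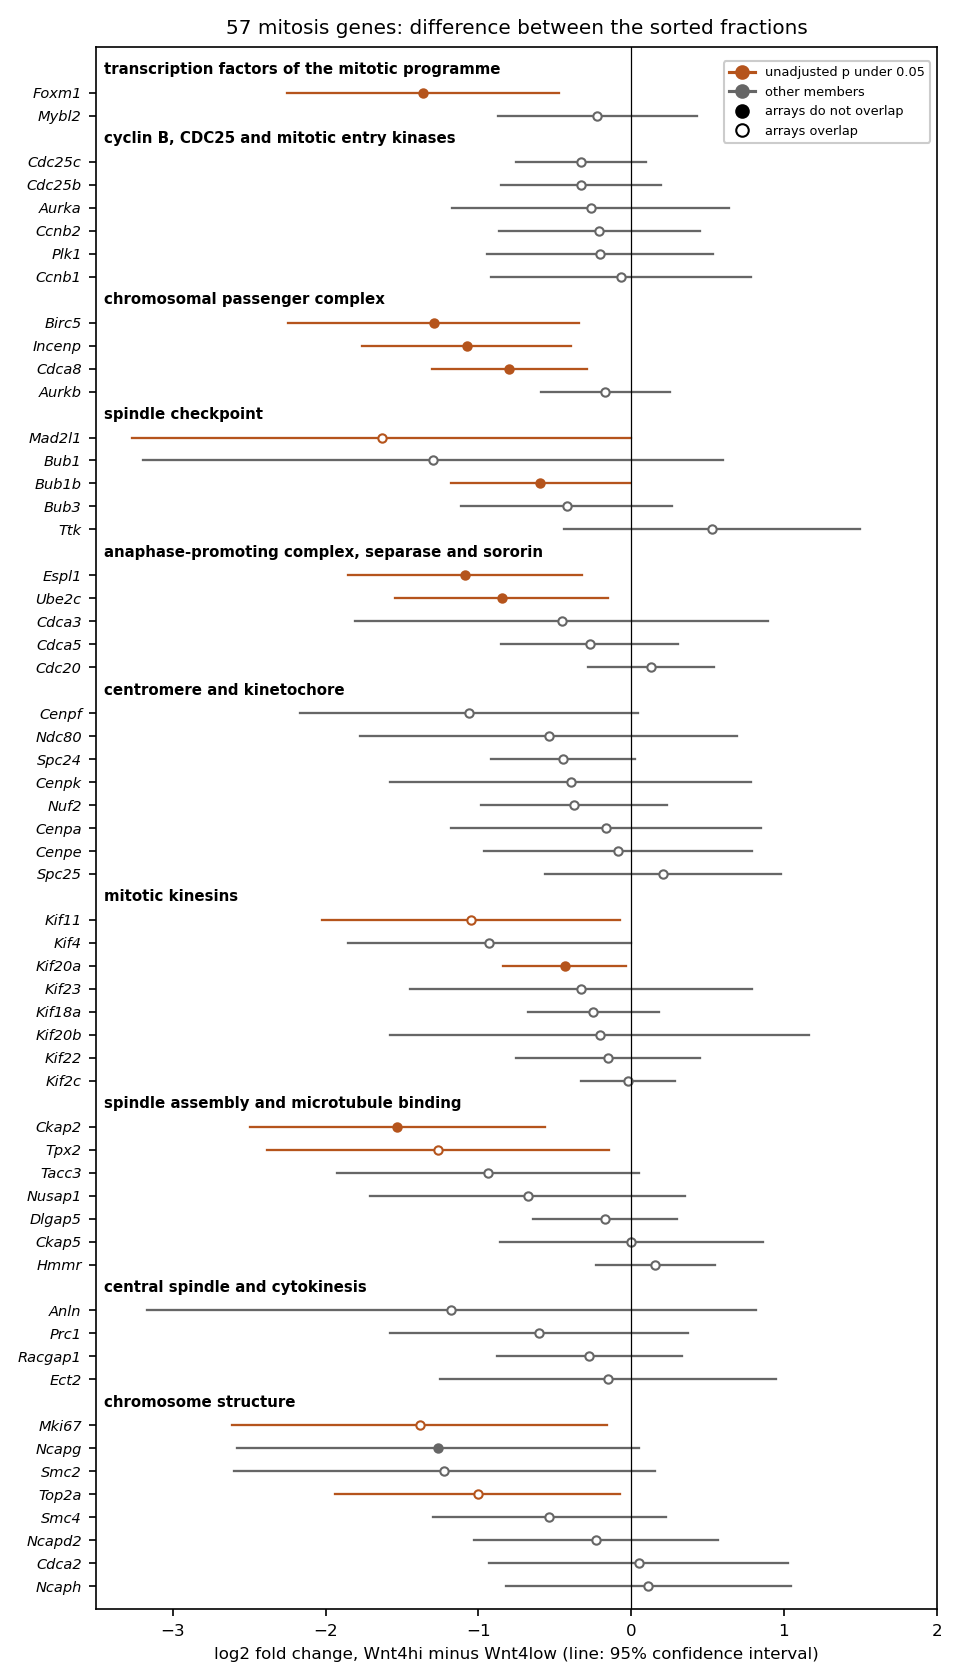
Difference of each of the 57 members between Wnt4hi and Wnt4low on the log2 scale (x axis), with 95% confidence intervals of the limma fit, grouped by role (y axis). Orange marks the 14 members with an unadjusted p under 0.05 and filled points the 10 whose 3 Wnt4hi arrays all lie below the 3 Wnt4low arrays, and 50 of the 57 points lie left of 0.

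The members share promoter letters that their choice did not use. RefSeq promoter windows (GRCm38.p6, 250 bases before to 50 bases after each annotated start) were held for 47 members, some with several starts, in 52 windows, and *Foxm1*, *Cdc25c*, *Aurkb*, *Incenp*, *Spc24*, *Kif20a*, *Tpx2*, *Dlgap5*, *Cdca2* and *Smc4* had none. The CHR letters (TTTGAA or TTTAAA, either strand) were found in 40 of the 52 windows (76.9%), beside 27.6% of all 32851 windows in the table. From 100 bases before the start to 50 after it they were in 67.3% of member windows and 12.8% of all windows. The CCAAT letters (either strand) were in 75% of member windows and 37.4% of all windows, and at least 2 copies were in 46.2% and 11.7%. A spacing of 30 to 35 bases between the starts of 2 copies, looked for after some windows had been read, was found in 17.3% and 1.64%. E2F-like letters (TTTCCCGC, TTTCGCGC, TTTGCCGC or TTTGGCGC, either strand) were in 5.77% and 2.27%. Matches of different motifs may share letters, and a match does not show that a factor binds there. In the 50 bases after the start, where 40.4% of member windows held the CHR letters, only 3.37% of all windows did.

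The 150 bases before the start are shown for 4 members that passed the unadjusted threshold (*Espl1*, *Ube2c*, *Kif11* and *Top2a*) and for 3 that did not (*Plk1*, *Ccnb1* and *Cdc20*), picked after the matches were seen as examples with CHR letters in this stretch. Each runs 5′ to 3′ on the strand of its gene and ends at the base before the start, and capitals mark CHR and CCAAT letters on either strand.
*Espl1* (chr15:102296143-102296292, + strand): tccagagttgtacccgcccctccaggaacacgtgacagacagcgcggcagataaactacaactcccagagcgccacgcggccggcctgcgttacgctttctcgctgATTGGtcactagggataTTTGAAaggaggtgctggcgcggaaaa
*Ube2c* (chr2:164769779-164769928, + strand): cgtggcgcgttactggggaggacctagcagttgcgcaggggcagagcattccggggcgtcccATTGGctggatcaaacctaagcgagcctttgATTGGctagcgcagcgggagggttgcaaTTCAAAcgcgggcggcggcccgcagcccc
*Kif11* (chr19:37376232-37376381, + strand): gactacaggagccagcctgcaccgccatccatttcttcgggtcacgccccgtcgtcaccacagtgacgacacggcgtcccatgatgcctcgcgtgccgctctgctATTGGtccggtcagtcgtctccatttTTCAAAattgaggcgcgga
*Top2a* (chr11:99024190-99024339, - strand): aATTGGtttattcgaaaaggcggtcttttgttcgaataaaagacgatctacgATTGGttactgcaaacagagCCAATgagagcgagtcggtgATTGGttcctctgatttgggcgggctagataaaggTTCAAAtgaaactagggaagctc
*Plk1* (chr7:122159285-122159434, + strand): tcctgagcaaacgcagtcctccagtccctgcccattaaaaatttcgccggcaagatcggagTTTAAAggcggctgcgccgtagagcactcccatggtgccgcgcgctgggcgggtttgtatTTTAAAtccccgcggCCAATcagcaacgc
*Ccnb1* (chr13:100786487-100786636, - strand): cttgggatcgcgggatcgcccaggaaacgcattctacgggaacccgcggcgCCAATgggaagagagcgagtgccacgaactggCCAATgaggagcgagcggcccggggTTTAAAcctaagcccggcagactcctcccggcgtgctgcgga
*Cdc20* (chr4:118437344-118437493, - strand): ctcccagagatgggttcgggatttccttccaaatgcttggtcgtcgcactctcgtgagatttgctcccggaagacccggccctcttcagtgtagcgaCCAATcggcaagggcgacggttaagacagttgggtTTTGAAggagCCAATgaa
The CHR letters begin 27, 29, 19 and 23 bases before the start in *Espl1*, *Ube2c*, *Kif11* and *Top2a*, and 42 and 18 bases before it in *Ccnb1* and *Cdc20*. *Plk1* holds them at 89 and 29 bases. The other 6 of the 10 members past the threshold that had a window differ from these examples. *Mki67* has CHR letters at 116 and 98 bases and *Ckap2* at 101 bases, and *Birc5*, *Cdca8*, *Bub1b* and *Mad2l1* have none in the 150 bases before the start. Elsewhere in their windows, *Cdca8* and *Bub1b* hold them in the 50 bases after the start and *Birc5* further before it, and only *Mad2l1* has none. *Ube2c* has CCAAT letters (read on the other strand as ATTGG) at 88 and 57 bases and *Ccnb1* at 99 and 67 bases, and *Top2a* has them at 149, 98, 78 and 58 bases. The 37 members with CHR letters had a median difference of -0.33, and 9 of them were among the 14, while the 10 without them had a median of -0.39, and 1 was among the 14.

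**Figure D2:**
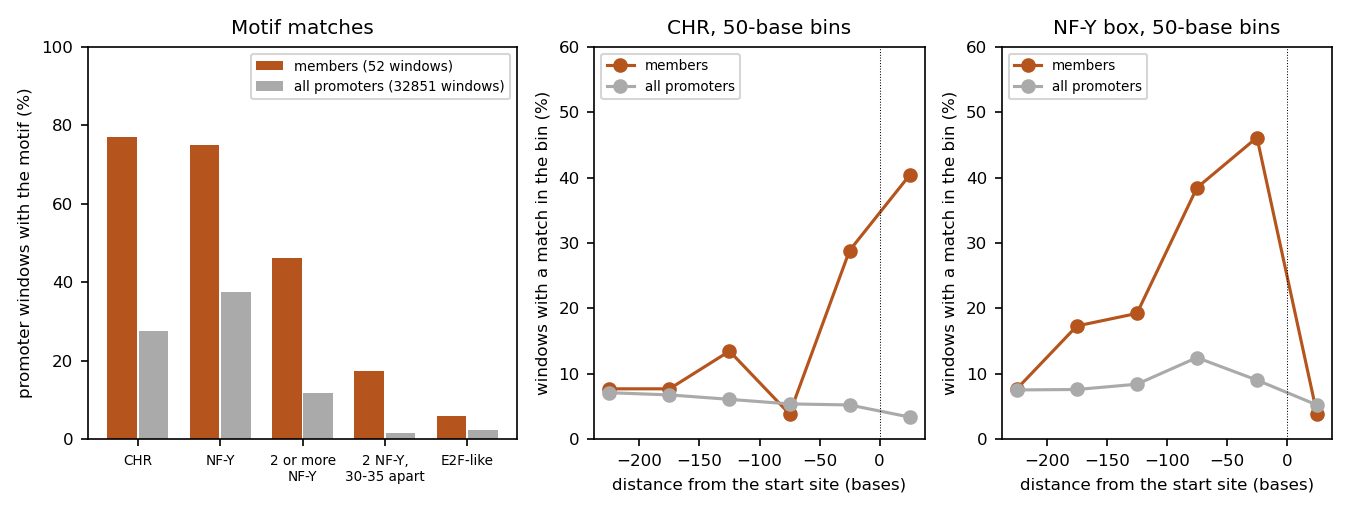
Left, the share of promoter windows (y axis, in %) that hold each motif, for the 52 member windows and all 32851 windows, with the CCAAT box named by its reader NF-Y. Middle and right, the share of windows with a match that begins in each 50-base bin, against the distance from the annotated start site in bases (x axis): in members the CHR letters are most common in the 50 bases after the start (40.4%) and the NF-Y box in the 50 bases before it (46.2%).

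The transcription factor FOXM1, the main activator of late cell cycle genes, gave the clearest difference at the top of the programme. *Foxm1* read 8.23, 7.51 and 8.04 on the Wnt4hi arrays of replicates 2, 3 and 4, and 9.36, 8.61 and 9.90 on the Wnt4low arrays of replicates 1, 3 and 4. The fractions did not overlap. The level was 2.57-fold higher in Wnt4low, a difference of -1.36 ± 0.37 (SE, unadjusted p = 0.00932, adjusted p = 0.24 in limma). On its other probe, well above background on no Wnt4hi array and all 3 Wnt4low arrays, the level was at least 1.38-fold higher in Wnt4low (limma over single probes, unadjusted p = 0.00415, adjusted p = 0.16). *Mybl2*, which encodes the partner of MuvB at CHR promoters, read 9.85, 9.50 and 8.94 in Wnt4hi and 9.93, 9.45 and 9.57 in Wnt4low. These values overlapped, and the difference was -0.22, with a 95% confidence interval from -0.87 to 0.43. A second probe of *Mybl2*, not well above background on any array, read 0.18 higher in Wnt4hi.

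Cyclin B with CDK1 is the kinase that starts mitosis. CDC25 phosphatases switch it on, and PLK1 and Aurora A (*Aurka*) help to do so. All 6 genes of this group had a lower mean in Wnt4hi, none passed the unadjusted threshold, and their median difference was -0.24. The largest was that of *Cdc25c*, which read 8.28, 7.97 and 8.32 in Wnt4hi against 8.55, 8.29 and 8.71 in Wnt4low. The highest Wnt4hi array lay above the lowest Wnt4low array, and the difference was -0.33 (95% confidence interval from -0.75 to 0.10). *Cdc25b* (-0.33), *Aurka* (-0.26), *Ccnb2* (-0.21) and *Plk1* (-0.20) differed by similar amounts. The smallest difference was that of *Ccnb1*, which read 9.66, 10.22 and 9.64 in Wnt4hi and 9.31, 9.84 and 10.56 in Wnt4low (-0.07, from -0.91 to 0.78). Its Wnt4low arrays alone spanned the Wnt4hi range. The other probes of *Ccnb1* went further in the same direction. On 1 of them no Wnt4hi array but all 3 Wnt4low arrays were well above background, so that the level was at least 2.43-fold higher in Wnt4low there (limma over single probes, unadjusted p = 0.0119, adjusted p = 0.255). The remaining probe read 0.79 lower in Wnt4hi, well above background on 1 Wnt4hi and 2 Wnt4low arrays.

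Ki67, topoisomerase IIα and the condensins shape mitotic chromosomes. *Mki67*, the gene of the usual marker of cycling cells, read 10.61, 9.89 and 11.41 in Wnt4hi and 11.97, 11.31 and 12.77 in Wnt4low. Wnt4hi replicate 4 lay just above Wnt4low replicate 3, and the other arrays were apart. The level was 2.61-fold higher in Wnt4low (-1.38 ± 0.50, SE, unadjusted p = 0.0326, adjusted p = 0.402). *Top2a*, which encodes the enzyme that untangles sister DNA, read 8.73, 9.47 and 9.34 in Wnt4hi and 10.36, 9.44 and 10.77 in Wnt4low. Again only Wnt4low replicate 3 lay within the Wnt4hi range, and the level was 2.01-fold higher in Wnt4low (-1.004 ± 0.38, SE, unadjusted p = 0.0385, adjusted p = 0.429).

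Of the 5 condensin genes, 4 read lower in Wnt4hi, and none passed the unadjusted threshold. *Ncapg*, a subunit of condensin I, read 7.94, 8.52 and 8.51 in Wnt4hi and 9.49, 8.55 and 10.72 in Wnt4low. The arrays did not overlap, but Wnt4low replicate 3 lay only just above the Wnt4hi arrays, and the difference of -1.26 had an interval from -2.58 to 0.05 (unadjusted p = 0.0572). *Smc2*, the condensin ATPase partner of *Smc4*, differed by -1.22 (unadjusted p = 0.073), and by -0.24 and -0.62 on its other 2 probes, the first of them well above background on all 6 arrays. *Smc4* differed by -0.53 and *Ncapd2* by -0.23, and *Ncaph* by 0.11 in the other direction. The other 2 probes of *Smc4* differed by -0.52 and -1.99, the second with an unadjusted p of 0.0906 over single probes and well above background on 2 of the 3 Wnt4hi arrays, and another probe of *Ncaph* read -0.31. *Cdca2*, which brings protein phosphatase 1 back to chromosomes at mitotic exit, had the smallest difference of the chromosome group. It read 7.94, 7.96 and 9.29 in Wnt4hi and 8.03, 8.62 and 8.39 in Wnt4low, an overlap in which a Wnt4hi array was highest (0.05, from -0.93 to 1.03). Its other 4 probes differed by -1.33, -0.91, -0.00 and 0.10, and none of them was well above background on all 3 arrays of a fraction.

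The kinetochore is built on centromeric chromatin and grips spindle microtubules through the NDC80 complex. In this group 7 of 8 genes read lower in Wnt4hi, none passed the unadjusted threshold, and the median difference was -0.39. *Cenpf*, a large microtubule-binding protein of the outer kinetochore that is made in G2, read 8.57, 9.55 and 9.58 in Wnt4hi and 10.49, 9.46 and 10.93 in Wnt4low. Wnt4low replicate 3 lay within the Wnt4hi range and the others above it, and the difference was -1.06 (from -2.17 to 0.05, unadjusted p = 0.0577). Its other probe, well above background on all 6 arrays, gave -0.43. The subunits of the NDC80 complex did not all go the same way. *Ndc80* differed by -0.54, *Spc24* by -0.44 (unadjusted p = 0.06) and *Nuf2* by -0.38, while *Spc25* differed by 0.21, and by 0.92 on its other probe (unadjusted p = 0.0937 over single probes). *Cenpk*, of the inner kinetochore, differed by -0.39, and *Cenpa*, the centromeric form of histone H3, by -0.16, with 2 of its 3 Wnt4hi arrays well above background. *Cenpe*, the kinesin that brings chromosomes to the spindle equator, had the smallest difference. It read 9.87, 9.73 and 8.90 in Wnt4hi and 9.88, 8.99 and 9.90 in Wnt4low (-0.09, from -0.96 to 0.79), and the ranges of the fractions were nearly the same.

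The chromosomal passenger complex, made of Aurora B and its partners INCENP, survivin (*Birc5*) and borealin (*Cdca8*), corrects faulty microtubule attachments and later moves to the cell equator. The genes of all 3 partners passed the unadjusted threshold with no overlap between arrays, and the median of the 4 genes, -0.94, was the lowest of the 10 groups of members. *Birc5* read 10.34, 11.15 and 11.71 in Wnt4hi and 12.44, 11.90 and 12.73 in Wnt4low, 2.45-fold higher in Wnt4low (-1.29 ± 0.39, SE, unadjusted p = 0.0159, adjusted p = 0.302). Its other probe differed by -0.54. *Incenp*, the scaffold, read 9.19, 9.51 and 9.31 in Wnt4hi and 11.02, 10.16 and 10.06 in Wnt4low, 2.11-fold higher in Wnt4low (-1.07 ± 0.28, SE, unadjusted p = 0.00831, adjusted p = 0.225). The Wnt4hi arrays lay close together. The other probe of *Incenp* differed by -1.60 and had the lowest p of all 96 probes of the members (unadjusted p = 0.000713, adjusted p = 0.0745 over single probes). *Cdca8* read 10.37, 9.67 and 9.93 in Wnt4hi and 10.94, 10.68 and 10.75 in Wnt4low, 1.74-fold higher in Wnt4low (-0.80 ± 0.21, SE, unadjusted p = 0.00824, adjusted p = 0.224). Its other probe, well above background on all 6 arrays, gave -1.89. The kinase gene *Aurkb* itself read 10.45, 10.63 and 10.37 in Wnt4hi and 10.79, 10.36 and 10.81 in Wnt4low. These values overlapped through Wnt4low replicate 3 (-0.17, from -0.59 to 0.25), and its other probe, well above background on only 1 Wnt4hi array, gave -0.58 (unadjusted p = 0.0344 over single probes).

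The spindle checkpoint holds back anaphase until every kinetochore is attached. Of its 5 genes 4 read lower in Wnt4hi, with a median of -0.59, and 2 passed the unadjusted threshold, both by a narrow margin. *Mad2l1*, whose product MAD2 blocks CDC20, read 7.30, 8.28 and 9.27 in Wnt4hi and 10.13, 8.81 and 10.82 in Wnt4low. The spread within each fraction was wide, and Wnt4low replicate 3 lay below the highest Wnt4hi array. The difference of -1.63 ± 0.67 (SE, unadjusted p = 0.0499, adjusted p = 0.472) had the largest size among the 57 members, but the gene was well above background on only 2 of the 3 Wnt4hi arrays, and the second probe of the gene differed by 0.29 in the other direction. *Bub1b*, whose product BUBR1 is part of the inhibitor of the anaphase-promoting complex, read 7.62, 7.83 and 7.44 in Wnt4hi and 8.69, 7.90 and 8.08 in Wnt4low. The arrays did not overlap, and the level was 1.51-fold higher in Wnt4low (-0.59 ± 0.24, SE, unadjusted p = 0.0484, adjusted p = 0.467). It too was well above background on only 2 of the 3 Wnt4hi arrays.

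The kinase gene *Bub1* was well above background on only 1 Wnt4hi and 2 Wnt4low arrays, so its values stand partly for background. It read 6.58, 7.70 and 7.75 in Wnt4hi and 9.71, 6.90 and 9.32 in Wnt4low, where replicate 3 was not well above background, and the interval of the difference ran from -3.20 to 0.60. *Bub3*, the adaptor that brings BUB1 and BUBR1 to kinetochores, had the smallest difference of the group. It read 10.71, 11.01 and 11.74 in Wnt4hi and 11.48, 11.46 and 11.79 in Wnt4low (-0.42, from -1.11 to 0.27), and its Wnt4hi replicate 4 lay within the Wnt4low range. *Ttk*, the kinase MPS1 that starts the checkpoint signal, was the member with the largest difference toward Wnt4hi. It read 9.46, 9.102 and 7.99 in Wnt4hi and 8.24, 8.08 and 8.65 in Wnt4low (0.53, from -0.44 to 1.498), with Wnt4hi replicate 4 the lowest of the 6 arrays. Its other 2 probes differed by -0.45 and -0.28.

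The bipolar spindle is built by microtubule nucleators, cross-linkers and growth factors, of which 5 of 7 read lower in Wnt4hi, with a median of -0.68. *Ckap2*, a microtubule stabilizer that is made in mitosis, read 8.73, 8.27 and 8.44 in Wnt4hi and 9.68, 9.44 and 10.91 in Wnt4low. The fractions were well apart, and the level was 2.89-fold higher in Wnt4low (-1.53 ± 0.40, SE, unadjusted p = 0.00796, adjusted p = 0.222). *Tpx2*, the activator of Aurora A on the spindle, read 8.43, 8.39 and 9.01 in Wnt4hi and 10.45, 8.85 and 10.33 in Wnt4low, 2.40-fold higher in Wnt4low (-1.27 ± 0.46, SE, unadjusted p = 0.0324, adjusted p = 0.401). Wnt4low replicate 3 again lay within the Wnt4hi range.

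*Tacc3*, whose product cross-links kinetochore fibres with chTOG (*Ckap5*), differed by -0.94 (unadjusted p = 0.0598), and by -0.84 on its other probe (unadjusted p = 0.0117 over single probes). *Nusap1*, a spindle-associated microtubule binder, differed by -0.68 and *Dlgap5*, a stabilizer of kinetochore fibres, by -0.17. *Hmmr*, a spindle-pole adaptor, differed by 0.16 on the probe used here, with 12.50, 12.90 and 12.67 in Wnt4hi and 12.50, 12.68 and 12.41 in Wnt4low, and by -0.57 and -0.62 on the other 2, so its direction depended on the probe. The smallest difference of all members was that of *Ckap5*, which read 10.26, 10.55 and 10.45 in Wnt4hi and 9.64, 10.61 and 11.01 in Wnt4low (0.00, from -0.86 to 0.86). The Wnt4low arrays reached both above and below the Wnt4hi arrays, and its other 2 probes, each near background on at least 1 array, differed by -0.32 and 0.19.

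All 8 mitotic kinesins had a lower mean in Wnt4hi, with a median of -0.29, and 2 passed the unadjusted threshold. *Kif11*, the motor that pushes the spindle poles apart, read 8.18, 7.79 and 8.35 in Wnt4hi and 9.53, 8.26 and 9.67 in Wnt4low, 2.07-fold higher in Wnt4low (-1.05 ± 0.40, SE, unadjusted p = 0.0392, adjusted p = 0.43). Only Wnt4low replicate 3 lay within the Wnt4hi range. *Kif20a*, which carries the passenger complex to the central spindle, read 9.83, 10.30 and 10.19 in Wnt4hi and 10.65, 10.51 and 10.47 in Wnt4low. There the fractions did not overlap, but the difference was small, at -0.43 ± 0.17 (SE, unadjusted p = 0.0389, adjusted p = 0.43). *Kif4*, a chromokinesin, missed the threshold narrowly (-0.93, unadjusted p = 0.0503) and, like *Kif20b*, was well above background on 2 of the 3 Wnt4hi arrays. *Kif23*, a subunit of centralspindlin, differed by -0.33, *Kif20b* by -0.21 and the chromokinesin *Kif22* by -0.15, and *Kif18a* by -0.25 below background. *Kif2c*, the microtubule depolymerase of the centromere, had the smallest difference of the kinesins. It read 9.69, 9.65 and 9.54 in Wnt4hi and 9.73, 9.55 and 9.66 in Wnt4low (-0.02, from -0.32 to 0.29), and this interval leaves out a difference as large as that of *Kif20a*.

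At the exit from mitosis the anaphase-promoting complex, with its activator CDC20 and its ubiquitin-conjugating enzyme UBE2C, frees separase to cut cohesin. Of the 5 genes in this group 4 read lower in Wnt4hi, with a median of -0.45. *Espl1*, which encodes separase, read 8.22, 7.34 and 7.53 in Wnt4hi and 8.77, 8.36 and 9.22 in Wnt4low, with no overlap, 2.12-fold higher in Wnt4low (-1.09 ± 0.32, SE, unadjusted p = 0.0132, adjusted p = 0.28). Only 2 of its 3 Wnt4hi arrays were well above background. *Ube2c* read 10.16, 9.79 and 9.29 in Wnt4hi and 10.96, 10.26 and 10.56 in Wnt4low, 1.80-fold higher in Wnt4low (-0.85 ± 0.29, SE, unadjusted p = 0.0245, adjusted p = 0.359). Its Wnt4hi replicate 2 and Wnt4low replicate 3 nearly met. *Cdca3*, well above background on 1 Wnt4hi and 2 Wnt4low arrays, differed by -0.45 and *Cdca5*, which encodes the cohesin protector sororin, by -0.27. *Cdc20* read 11.76, 11.75 and 11.42 in Wnt4hi and 11.52, 11.70 and 11.32 in Wnt4low, with overlapping arrays (0.13, from -0.28 to 0.54), and its other probe differed by -0.67.

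The 4 genes of the central spindle and the cleavage furrow all had a lower mean in Wnt4hi, with a median of -0.44, and none passed the unadjusted threshold. *Anln*, the furrow scaffold anillin, read 6.02, 7.95 and 8.76 in Wnt4hi and 8.31, 8.02 and 9.94 in Wnt4low. The Wnt4hi arrays ranged so widely that the difference of -1.18 had an interval from -3.17 to 0.82, and 2 of the 3 were well above background. Its other probe gave -1.03 (unadjusted p = 0.0104 over single probes), but was well above background on only 1 of the 3 Wnt4hi arrays. *Prc1*, which bundles antiparallel microtubules, differed by -0.60, and by 0.11 on its other probe. *Racgap1*, the partner of *Kif23* in centralspindlin, differed by -0.27, and by -0.95 on a probe not well above background on any Wnt4hi array, where the level was at least 1.26-fold higher in Wnt4low. *Ect2*, the RhoA activator at the furrow, had the smallest difference of the group. It read 9.68, 9.47 and 9.07 in Wnt4hi and 8.96, 9.13 and 10.58 in Wnt4low (-0.15, from -1.25 to 0.95), and both the lowest and the highest array were Wnt4low.

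**Figure D3:**
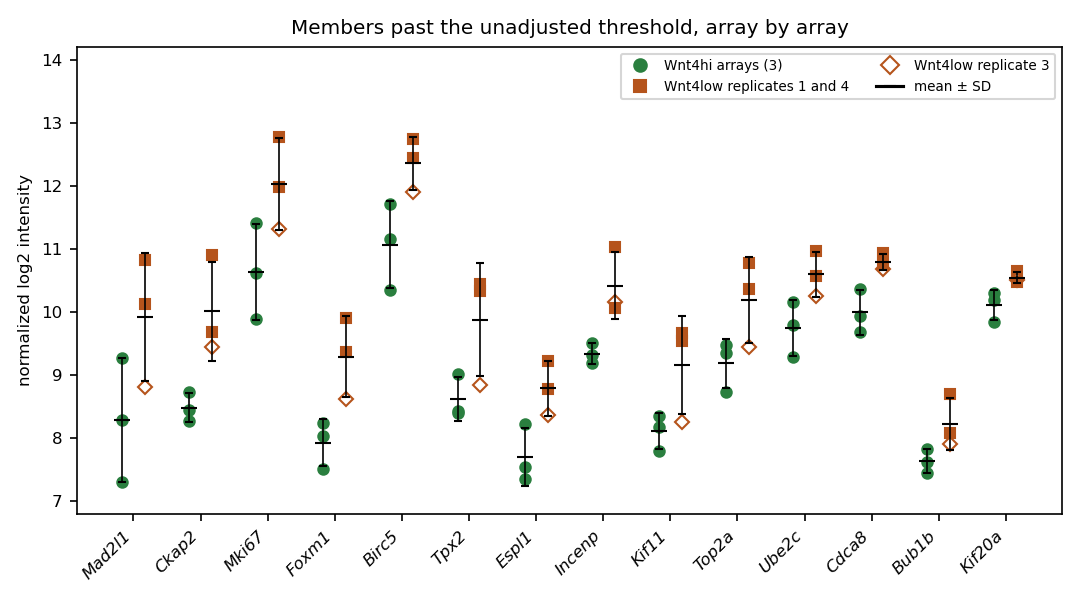
Normalized log2 intensity (y axis) of the 14 members with an unadjusted p under 0.05 (x axis), with each array as a point and the mean ± SD of the 3 arrays of each fraction in black. Wnt4low replicate 3 (open diamonds) is the lowest Wnt4low array for 12 of the 14, and for 5 of them, *Mad2l1*, *Mki67*, *Tpx2*, *Kif11* and *Top2a*, it lies below the highest Wnt4hi array.

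The choice of probe mattered for some members. The 57 members had 96 probes in all, and 29 had more than 1. In 20 of these 29 the probes of a gene had differences of 1 sign, and in 24 they lay within 1 of each other on the log2 scale. Of the 96 probes, 83 read lower in Wnt4hi, 23 with an unadjusted p under 0.05, from 20 members, beside 6.12% of all 56605 probes on the array. None read higher at that threshold. Among other probes not given above, that of *Kif2c* differed by -0.23, that of *Kif23* by -0.60, that of *Kif20b* by -0.64, and those of *Cenpk* by -0.15 and -0.80. Those of *Cdc25b* and *Top2a* differed by -0.34 and -0.999, the latter well above background on 1 Wnt4hi array, and that of *Ect2* did not clear background on any of the 6 arrays.

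Array by array, the difference came mainly from a pair of Wnt4low arrays. The median of the members' deviations from their own mean over the 6 arrays was -0.31, -0.09 and -0.29 for Wnt4hi replicates 2, 3 and 4, and 0.39, -0.09 and 0.39 for Wnt4low replicates 1, 3 and 4. Wnt4low replicate 3 was thus level with the highest Wnt4hi array. It was the lowest of the Wnt4low arrays for 42 of the 57 members, while replicate 4 was the highest of all 6 arrays for 27 members and replicate 1 for 19. For 30 members both Wnt4low replicates 1 and 4 lay above all 3 Wnt4hi arrays, beside 10.5% of all features. For 12 of the 57 Wnt4low replicate 3 did, which is near the 18% of all features.

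Other cell division genes were listed by function to place the members. Their counts read against 36.4% of all features lower in Wnt4hi and 5.53% lower at an unadjusted p under 0.05. Of 30 other kinetochore and centromere genes, 24 read lower in Wnt4hi, 8 at an unadjusted p under 0.05, with a median of -0.35. The lowest p values belonged to *Dsn1* of the MIS12 complex (-1.62 ± 0.23, SE, adjusted p = 0.063), to *Ska1*, a microtubule coupler that was not well above background in Wnt4hi and at least 1.86-fold higher in Wnt4low (adjusted p = 0.16), and to *Kntc1*, the checkpoint protein ROD (-0.64 ± 0.21, SE, adjusted p = 0.338). Of 38 other genes of mitosis and cytokinesis, 34 read lower, 10 at an unadjusted p under 0.05, with a median of -0.52. These 10 included *Ccna2*, cyclin A2 (-1.001 ± 0.20, SE, adjusted p = 0.121), the spindle-pole gene *Aspm* (-1.95 ± 0.49, SE, adjusted p = 0.205) and *Cks2*, a CDK-binding protein (-1.48 ± 0.40, SE, adjusted p = 0.249).

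*Ccna2* read 8.65, 8.66 and 8.60 in Wnt4hi and 9.76, 9.25 and 9.90 in Wnt4low, one of the tightest contrasts among these genes. Of 40 DNA replication genes, 32 read lower in Wnt4hi, 10 at an unadjusted p under 0.05, with a median of -0.45. They were led by *Rrm1*, a subunit of the enzyme that makes deoxynucleotides (-0.76 ± 0.16, SE, adjusted p = 0.132), *Pcna*, the sliding clamp of the replication fork (-0.83 ± 0.21, SE, adjusted p = 0.211), and *Dbf4*, the activator of the CDC7 kinase (-0.97 ± 0.25, SE, adjusted p = 0.218). The 28 subunits of the anaphase-promoting complex and of cohesin are also expressed in cells that do not divide. Of these, 12 (42.9%) were lower in Wnt4hi, 2 at an unadjusted p under 0.05, with a median of 0.08, and both counts are near the shares over all features. The cohesin subunit *Smc1a* (-0.46 ± 0.15, SE, adjusted p = 0.356) and the catalytic subunit *Anapc11* (-0.44 ± 0.17, SE, adjusted p = 0.419) were the 2, and *Cdc27* was next (0.48 ± 0.20, SE, adjusted p = 0.479) in the other direction. No gene of these lists passed the adjusted threshold, and no test was made between the lists.

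**Figure D4:**
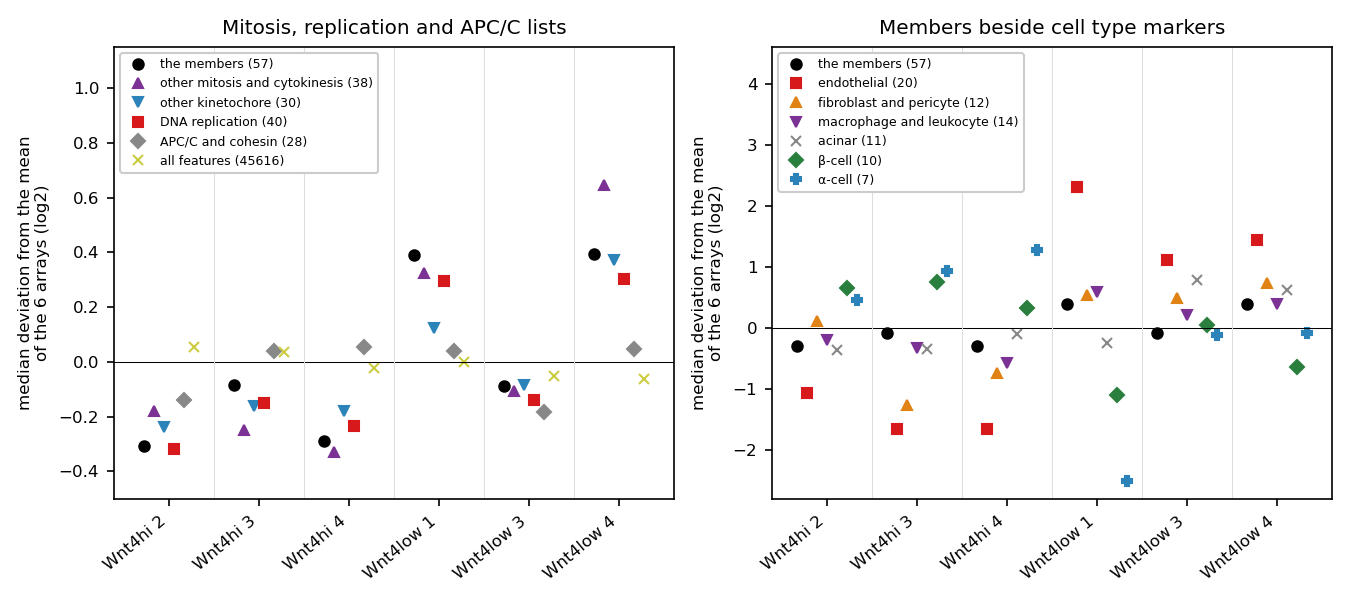
Median over each list of the deviation of a gene from its own mean over the 6 arrays (y axis, log2), for each array (x axis, fraction and replicate number), with the number of genes in brackets. Left, the mitosis and replication lists are high on Wnt4low replicates 1 and 4 and lie near the Wnt4hi arrays on Wnt4low replicate 3. Right, the endothelial markers are high on all 3 Wnt4low arrays.

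The fractions also differed in markers of cell types. All 20 endothelial markers read lower in Wnt4hi, with a median of -3.19, and 10 passed the adjusted threshold. Between 15 and 17 of them were well above background on each Wnt4hi array and all 20 on each Wnt4low array, and their summed normalized intensity was 8156 to 11603 in Wnt4hi and 53489 to 118547 in Wnt4low. *Tie1* and *Tek*, both endothelial receptors, were not well above background on any Wnt4hi array. Of 12 fibroblast and pericyte markers 11 read lower in Wnt4hi (summed intensity 45985 to 82631 against 104090 to 139280), all 12 being well above background on every array. Of 14 macrophage and leukocyte markers 12 read lower (70231 to 80630 against 83385 to 109849), with 12 to 14 well above background on each Wnt4hi array and all 14 on each Wnt4low array. The leukocyte sum is mostly that of the bright *Itgam*, which differed by -0.09, while the median of the list was -0.73.

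The β-cell and α-cell markers went the other way. Of 10 β-cell markers 9 read higher in Wnt4hi (327925 to 336473 against 190303 to 292784), and all 7 α-cell markers did (81327 to 123556 against 13807 to 67506). Of 5 markers of δ-cells and other endocrine cells 3 read higher in Wnt4hi (sum of all 5, 81256 to 112691 against 62077 to 67549), while *Sst* (-0.56, unadjusted p = 0.0238) and *Hhex* (-1.75, unadjusted p = 0.00106) read lower. The 10 β-cell markers were well above background on all 6 arrays, so transcripts of endocrine cells were detected in both fractions. Acinar markers were 10 of 11 lower in Wnt4hi (7462 to 10654 against 7149 to 35123), and Schwann and neural crest markers 6 of 7 (6790 to 7592 against 8518 to 10335). Single duct and erythroid markers had no common direction, with 3 of 9 and 4 of 8 lower. The duct sum was higher in Wnt4hi (32972 to 41792 against 18506 to 25513), and the erythroid sums overlapped (7882 to 9992 against 8412 to 15361). Within Wnt4low, replicate 3 had the lowest endothelial sum (53489) and the highest β-cell sum (292784) as well as the lowest median of mitosis genes, and replicate 1 had the highest endothelial sum (118547), the lowest β-cell sum (190303) and a high median of mitosis genes. Sums and medians ordered some other lists differently. Replicate 1 had the lowest fibroblast (104090), leukocyte (83385) and acinar (7149) sums of the Wnt4low arrays, but the median deviations on replicates 1, 3 and 4 were 0.58, 0.21 and 0.40 for leukocyte and 0.53, 0.50 and 0.74 for fibroblast markers, lowest on replicate 3. For acinar markers the median was also lowest on replicate 1 (-0.24, against 0.78 and 0.62). On replicate 3, where the mitosis median was -0.09, the median deviations of the endothelial, fibroblast and leukocyte markers were 1.12, 0.50 and 0.21, all above those of the Wnt4hi arrays. Replicate 4 had an endothelial sum of 66508 and a β-cell sum of 219260 beside its equally high median of 0.39. Which cell types carried the mitosis transcripts in either fraction was not tested, and in these bulk samples the part of the endothelial, stromal and leukocyte cells in the difference cannot be told apart from that of endocrine cells.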

How the data were processed

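RNA of FACS-sorted P1 islet cells was amplified, labelled with Cy5 and hybridised to Agilent single-colour arrays by the authors. They deposited for each array the red median spot intensity and local background intensity, not normalized, written by Agilent Feature Extraction (version 9.1 per the submitters' processing notes). A deposited table of normalized log2 values per array was used only as an alternative.

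Following the study's methods, limma (version 3.58.1, R 4.3.3) corrected the background with normexp (offset 50, all spots) and normalized the log2 intensity of non-control spots by quantiles. Spots flagged as outliers (50 to 141 per array) were left out, and 0 were saturated. Spots of a probe were averaged (56605 probes), and each gene was read from its brightest probe on average (45616 features). Of 35886 probes with a RefSeq-type name, 32994 matched a RefSeq gene table (GRCm38.p6, used for names only, since the array annotation is older). Wnt4hi and Wnt4low were compared with lmFit and eBayes without covariates. The p-values were adjusted after Benjamini and Hochberg across the 45616 features, and the threshold of 0.05 was applied both before adjustment, as in the methods, and after it. The calculation was tested on simulated data.

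Spots stood 10.8 to 15.6 times above background at the median, and precision is limited by having 3 arrays per fraction. A bound ("at least") sets the mean of the bright fraction against, per dim array, its own value or the dimmest value that still cleared background on that array, whichever was higher. Values on every array are given for members past the unadjusted threshold and for the largest and smallest absolute difference of each group. A few others were added after their values were seen (*Bub1*, *Ttk*, *Hmmr* and *Ncapg*, and *Ccna2* outside the members). Of the other gene lists the 3 lowest p are given. Members and lists were chosen with earlier results of these data known. Alternatives changed the background correction, normalization, filter on dim probes, outlier spots, choice of probe, variance model, source of values and blocking, and left out each array in turn.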

Additional observations from a re-analysis of the deposited data

How the results depend on the processing

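The median difference of the mitosis genes stayed below 0 under all 20 other settings and 1 added after seeing the data, between -0.60 (probe with the smallest p) and -0.26 (without Wnt4low replicate 4), with 43 to 56 members lower in Wnt4hi and none past the adjusted threshold. None of the 14 members past the unadjusted threshold changed sign, and *Foxm1*, *Incenp*, *Cdca8*, *Espl1* and *Ckap2* passed under each of these settings that gave them a value. The count of members past the unadjusted threshold, 14, was 6 with a plain unpaired t-test, which the study used for other assays, where 4.08% of all features were called lower, and ranged from 5 (without Wnt4low replicate 4) to 20 (without Wnt4low replicate 3) when single arrays were left out. Without Wnt4low replicate 3, 30 members had all Wnt4hi arrays below the Wnt4low arrays, beside 10.5% of all features. Over all features, the 201 calls past the adjusted threshold became 509 with the filter on dim probes, 368 with the probe of smallest p, 406 with the authors' values, 0 with the plain t-test, 0 with a replicate block, and 0 to 9 when single arrays were left out (9 without Wnt4low replicate 3). The 4828 features past the unadjusted threshold stayed between 4063 and 5741.

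Arrays of the fractions share the numbers 3 and 4 only. Deviations from the fraction mean correlated at -0.03 for number 3 and 0.16 for number 4. With 3 arrays per fraction these values cannot decide whether equal numbers pair samples. Pool sizes matched by number, with 4 pups in each pool of number 3 and 3 in each pool of number 4. The main fit left the samples unpaired. With the replicate block 13 members passed the unadjusted threshold, beside 6.08% of all features called lower. *Bub1b* (-0.35), 1 of the 14 of the main fit, was not among these 13. A random block gave 14, beside 5.85% of all features. The count was 12, beside 6.04%, when Wnt4hi replicate 2 and Wnt4low replicate 1, chosen after seeing the data, were added as a pair, where 0 features passed the adjusted threshold. In the authors' table, 48 members had a named row and 14 passed, beside 6.92% of its 36689 features called lower. Why its column for Wnt4hi replicate 2 follows the scanner array so loosely was not tested. No group has over 3 arrays, so no array was tested as an outlier.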
